A study of Drosophila melanogaster with 12 samples.

Results

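The synaptotagmins are membrane proteins of secretory vesicles and of the cell surface, and most carry a pair of C2 domains that bind calcium, phospholipids and the SNARE fusion machinery. Syt1 is the calcium sensor for fast, synchronous release of transmitter from synaptic vesicles in Drosophila as in mammals. Other family members act on other vesicles or at other steps, so the mixture of synaptotagmins in a neuron bears on which vesicles respond to calcium. All 7 genes of the family were followed here: Syt1 (CG3139), Syt4 (CG10047), Syt7 (CG2381), Sytalpha (CG5559), Sytbeta (CG42333), Syt12 (CG10617) and Syt14 (CG9778). They were chosen by gene number from the 17561 genes of the deposited table, and they are all 7 genes whose symbol begins with Syt and a number or Greek letter. The choice used no threshold on a measured value, but the levels of these genes in the 4 genotypes were known from earlier results when the family was proposed. Fold changes and p-values are therefore given as descriptions of these libraries.

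Poly(A) RNA of whole Drosophila melanogaster embryos aged 20 to 24 h was sequenced in 3 libraries for each of 4 genotypes, and the reads of every gene were counted. The mutant groups were elav[null], elav[null] fne[null] (called double null below) and elav[WDd]. The control group, WT, carries elav[e5] over the FM7 balancer X chromosome according to the labels, and elav[null] over FM7 according to the column headers, so it is not free of mutant elav. ELAV and FNE are related neuronal RNA-binding proteins that direct splicing and poly(A) site choice. Mutant embryos were picked because they lacked the green fluorescence carried by the balancer, so balancer and genotype cannot be told apart. The WDd allele is not described further in the labels, nor is it stated how many embryos were pooled or whether replicates were separate collections. All p-values therefore rest on the spread among these 12 libraries, and that spread may be technical.

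Library totals ran from 22491041 to 97043662 counts, and each member had at least 69 counts in every library. All 7 passed the filter on low counts, as did 14031 genes in all. elav averaged 5.01 ± 1.16 CPM (counts scaled to library size with TMM factors) in elav null, 5.55 ± 0.566 in the double null, 164 ± 24.2 in WDd and 113 ± 46.1 in WT (SD, n = 3 each). fne stood at 173, 243 and 36.2 CPM in elav null replicates 1 to 3, at 19.6 to 30.6 CPM in the double null, 214 to 276 CPM in WDd and 135 to 249.7 CPM in WT. The library labelled elav null replicate 3 thus had fne near the double null range, against its label. It was also the shallowest and, at an equal depth of 2e+07 counts, detected the fewest genes, 10526, with 11553 in double null replicate 2, 11874 in elav null replicate 1 and 13247 to 15579 in the other 9. The neuron markers (10 genes) were counted in all 12 libraries, with sums of 2462 to 3350 CPM in elav null, 2208 to 2755 in the double null, 3021 to 3620 in WDd and 2390 to 4318 in WT. In bulk RNA of whole embryos, fewer neurons and less RNA per neuron cannot be told apart.

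The genes lie at scattered places in the genome (dm6). Syt1 spans 2L: 2772327 to 2799979, Sytalpha 2L: 17592260 to 17604387, Sytbeta 3L: 15014695 to 15064977, Syt14 3R: 4314455 to 4319069 and Syt4 3R: 7266065 to 7270809. Syt7 lies on the small chromosome 4 (278685 to 306481) and Syt12 on the X (13359248 to 13368179). Syt1 has the most elaborate annotation, with 8 transcripts, 3 annotated transcript ends and 3′ untranslated regions of 2126 to 4011 bases, whereas Syt4 has 1 transcript. Counts per gene do not separate these forms. Exons of Syt14 share 944 bases with Suv3 on the opposite strand, and those of Sytalpha share 40 bases with CG6870. The strand setting of the counting is not given, so the Syt14 level in particular is uncertain. The long Sytbeta gene holds 13 other genes within its span, none of which shares exon bases with it.

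Within WT embryos, levels per length ran over an order of magnitude, with Syt1 and Syt4 on top. Per kilobase of annotated exon, Syt1 averaged 49.6 ± 14.7 CPM, Syt4 37.4 ± 7.72, Syt7 19.3 ± 2.21, Sytbeta 12.05 ± 3.02, Sytalpha 5.31 ± 0.818, Syt12 4.48 ± 1.31 and Syt14 3.22 ± 0.5 (SD, n = 3 WT libraries each). In that order the ranges of Syt1 and Syt4 overlapped, as did those of Sytalpha and Syt12 and of Syt12 and Syt14, while the other neighbours did not overlap. In the double null the order was Syt4 (40.5 ± 7.11 CPM per kilobase), Syt1 (31.0 ± 4.77), Sytbeta (7.61 ± 2.25), Syt7 (4.84 ± 0.259), Sytalpha (4.53 ± 2.04), Syt14 (3.62 ± 0.175) and Syt12 (0.913 ± 0.313). Syt1 and Syt4 again overlapped there, as did Syt7 and Sytalpha, and Sytalpha and Syt14. Per length Syt4 stood above Syt1 in every library of both null genotypes, and below it in every WDd and WT library. The length used is the union of all annotated exons, so this order would shift if shorter forms were the ones present.

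**Figure D1:**
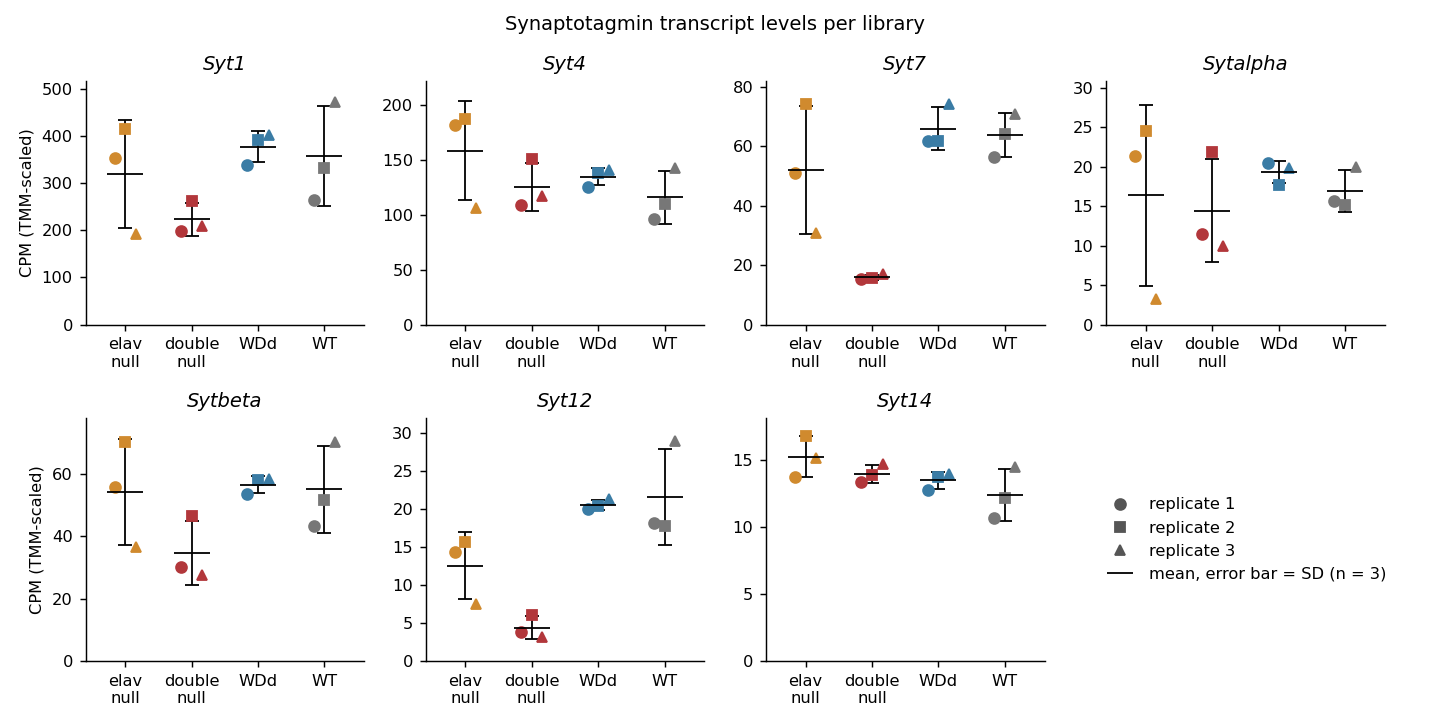
Level of each synaptotagmin gene in CPM (linear axis from 0) in the 3 libraries of elav null, double null, WDd and WT; marker shapes give the replicate, horizontal lines the mean and bars the SD (n = 3). Syt7 lies at 15.4 to 16.99 CPM in the double null, against 56.4 to 71.0 CPM in WT, and elav null replicate 3 is the lowest elav null library for every gene but Syt14.

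Of the 7 members, Syt7 and Syt12 were called in the double null against WT, both lower. Syt7, which in flies sits near the active zone and limits how much transmitter is released, fell to 0.251 times its WT level, and Syt12 to 0.204 times. Syt12 encodes a synaptotagmin whose mammalian relative does not bind calcium. No member was called higher. In edgeR's quasi-likelihood test 2 of 7 members were called lower (adjusted p under 0.05 over all 14031 genes) and 5 were not called, while 14.7% of all tested genes were called lower in the same comparison. With 7 members, that count by itself does not set the family apart. The median log2 fold change was −0.66 over the members and −0.031 over all genes tested.

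Syt7 had 15.4, 15.6 and 16.99 CPM in the double null, against 56.4, 64.3 and 71.0 CPM in WT. The groups were far apart, and the 3 double null libraries were nearly alike. The log2 fold change was −2.0 ± 0.25 SE (95% interval −2.54 to −1.45), with an edgeR adjusted p of 9.66e-05. Syt12 had 3.82, 6.12 and 3.27 CPM in the double null, against 18.2, 17.7 and 28.9 CPM in WT. The lowest WT library was well above the highest double null library, although WT replicate 3 was higher than the other two. The log2 fold change was −2.29 ± 0.33 SE (−3.01 to −1.57), with an edgeR adjusted p of 0.000251. Both calls were kept under all 19 alternatives, with adjusted p up to 0.00119 for Syt7 and 0.00271 for Syt12.

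Syt1, the sensor of fast release, had 198, 262 and 209.5 CPM in the double null, against 265, 332 and 473 CPM in WT. The groups came close to overlapping, and the WT libraries differed widely among themselves. Its log2 fold change of −0.68 ± 0.27 SE missed the threshold (95% interval −1.26 to −0.09, edgeR adjusted p = 0.0981). Sytbeta, linked in flies with Sytalpha to vesicles other than synaptic vesicles, had 30.1, 46.5 and 27.6 CPM in the double null, against 43.3, 51.5 and 70.2 CPM in WT, and these ranges overlapped. Its log2 fold change was −0.66 ± 0.26 SE (−1.23 to −0.10, edgeR adjusted p = 0.0944). Both passed the test with the library labelled elav null replicate 3 left out (edgeR adjusted p = 0.0299 for Syt1 and 0.0429 for Sytbeta). That library is in neither group and enters only through the filter, scaling, spread and adjustment shared by all libraries. The fit without it called 4 members lower, and 17.1% of all genes. Without double null replicate 2 Sytbeta passed (0.0405) and Syt1 did not. With the 3 libraries of fewest detected genes left out, 5 members were lower, since Sytalpha passed too (−0.63, edgeR adjusted p = 0.0380), and 16.7% of all genes were.

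The other members gave no call in the double null. Syt4, which in flies marks postsynaptic vesicles that carry retrograde signals at the neuromuscular junction, had 109, 150.7 and 117 CPM in the double null, against 96.0, 110 and 143 CPM in WT. The groups overlapped, and the 95% interval of the log2 fold change was −0.37 to 0.60 (edgeR adjusted p = 0.801). Syt14, whose mammalian relative does not bind calcium either, had 13.4 to 14.7 CPM in the double null against 10.7 to 14.5 CPM in WT, with an interval of −0.27 to 0.61 (edgeR adjusted p = 0.650). Sytalpha had 11.5, 21.9 and 9.99 CPM in the double null, against 15.7, 15.1 and 19.9 CPM in WT. Double null replicate 2, one of the libraries that detected few genes, was the high one, and the interval of −1.33 to 0.88 is wide (edgeR adjusted p = 0.832).

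**Figure D2:**
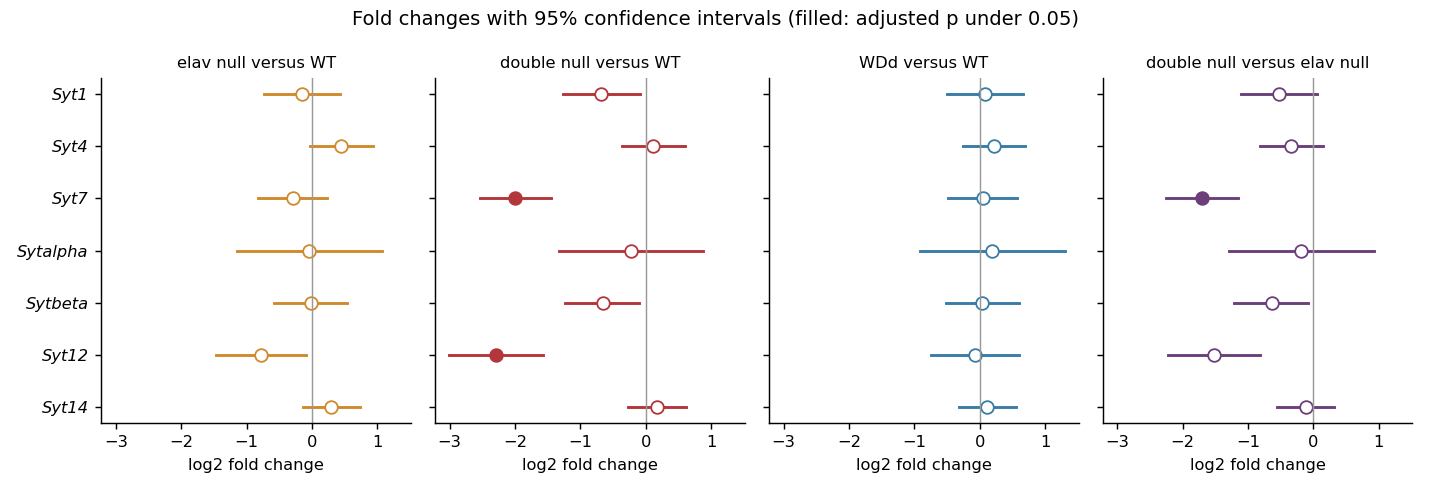
Log2 fold change of each synaptotagmin gene from the fit over all 12 libraries, with its 95% confidence interval, for 4 comparisons; filled points have an adjusted p under 0.05 over all genes tested. In the double null versus WT panel Syt7 (−2.0) and Syt12 (−2.29) lie apart from the other 5 genes, and in the WDd versus WT panel every interval includes 0.

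No member passed the test in elav null embryos. In elav null, 0 of 7 members were called in edgeR, against 17.7% of all genes called in either direction. For 1 member, Syt12, the unadjusted edgeR p was under 0.05, as for 4142 of the 14031 genes tested. DESeq2 called 0 members, and 23.6% of all genes. The median log2 fold change was −0.041 over the members and −0.11 over all genes. Syt7 had 51.0, 74.1 and 31.0 CPM in elav null, against 56.4, 64.3 and 71.0 CPM in WT. Replicate 1 lay just below the WT range and replicate 2 just above it. The library labelled elav null replicate 3 lay far below it. The log2 fold change was −0.29 ± 0.24 SE (95% interval −0.82 to 0.23, edgeR adjusted p = 0.478), and −0.018 without that library (0.967). Syt12 had 14.4, 15.7 and 7.57 CPM in elav null, against 18.2, 17.7 and 28.9 CPM in WT. All 3 elav null libraries were below all 3 WT libraries, but the log2 fold change of −0.78 ± 0.32 SE did not pass (−1.47 to −0.09, edgeR adjusted p = 0.119). It was −0.51 with the library labelled elav null replicate 3 left out (edgeR adjusted p = 0.267) and −0.51 without WT replicate 3 (0.365).

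Syt4 had higher values in some elav null libraries. It had 182, 188 and 106 CPM in elav null, against 96.0, 110 and 143 CPM in WT, so that replicates 1 and 2 stood above WT and the library labelled elav null replicate 3 within its range. The log2 fold change of 0.45 ± 0.22 SE did not pass (95% interval −0.03 to 0.93, edgeR adjusted p = 0.201). Without that library it was 0.68 and passed (0.0244), the 1 call among the members in that fit, where 16.9% of all genes were called in either direction. Syt1 had 352, 414 and 192 CPM in elav null and overlapped WT (interval of the log2 fold change −0.74 to 0.42). Sytalpha had 21.4, 24.5 and 3.20 CPM in elav null, the last of these from the library labelled elav null replicate 3 and the lowest of all 12 libraries. Sytbeta at 36.5 to 70.2 CPM overlapped its WT range, and Syt14 at 13.8 to 16.8 CPM its own (edgeR adjusted p = 0.974 and 0.380). With the library labelled elav null replicate 3 left out the log2 fold changes were 0.12 for Syt1, 0.45 for Sytalpha, 0.21 for Sytbeta and 0.31 for Syt14, none of which passed in edgeR.

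Double null and elav null embryos were compared directly, since a call against WT in one and not in the other is no test of their difference. Syt7 was called lower in the double null, at 15.4 to 16.99 CPM against 31.0 to 74.1 CPM in elav null. The log2 fold change was −1.70 ± 0.25 SE, with an edgeR adjusted p of 0.0274. This was 1 of 7 members, in a comparison where 0.185% of all genes were called lower. The call was lost without WT replicate 2, without elav null replicate 1, and without any single double null or WDd library, with adjusted p from 0.0602 to 0.166, although the log2 fold change stayed between −1.74 and −1.67 in those fits. It was lost too with the replicate number as a block (0.0821) and in the fit of the 6 libraries alone (0.489). Syt12, with a log2 fold change of −1.52 ± 0.33 SE, missed the threshold (edgeR adjusted p = 0.0769; 0.00148 in DESeq2). With the library labelled elav null replicate 3 left out, 3 members were called lower, namely Syt7 (−1.96, edgeR adjusted p = 3.83e-05), Syt12 (−1.77, 0.00187) and Sytbeta (−0.86, 0.0475). That fit called 4.94% of all genes lower in this comparison.

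No member was called in WDd, and the values lay near those of WT. In edgeR 0 of 7 members were called against WT, where 0.2% of all genes were called in either direction. Of the members 0 had an unadjusted edgeR p under 0.05, against 644 of the 14031 genes tested. DESeq2 called 0 members, and 1.13% of all genes. Syt7 had 61.8, 61.7 and 74.4 CPM in WDd, against 56.4, 64.3 and 71.0 CPM in WT, with a log2 fold change of 0.046 (95% interval −0.48 to 0.57). Syt12 had 20.0, 20.3 and 21.3 CPM in WDd, against 18.2, 17.7 and 28.9 CPM in WT, with −0.073 (−0.75 to 0.61). The WDd libraries lay within or close to the WT range for all members. The widest interval, that of Sytalpha, ran from −0.91 to 1.30, so changes of about that size could go uncalled. A call after adjustment over all genes asks for more than a 95% interval without 0, so larger changes could too.

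WDd was also compared with the nulls. In WDd versus double null 2 of 7 members were called higher, where 14.3% of all genes were, namely Syt7 (2.04 ± 0.25 SE, edgeR adjusted p = 9.02e-05) and Syt12 (2.22 ± 0.33, 0.000355). Syt1 at 0.76 ± 0.27 SE missed the threshold (edgeR adjusted p = 0.0638), as did Sytbeta at 0.70 ± 0.26 (0.0755). In WDd versus elav null 0 of 7 members were called in edgeR, where 16.8% of all genes were called in either direction. In that comparison 1 member, Syt12, had an unadjusted p under 0.05 (0.70 ± 0.32 SE, edgeR adjusted p = 0.158), as did 4148 of 14031 genes. DESeq2 called 0 members, and 23.1% of all genes. With the library labelled elav null replicate 3 left out the Syt12 value was 0.43 (edgeR adjusted p = 0.342). These comparisons share libraries with those above.

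The ratio of 1 member's counts to those of Syt1 in the same library does not depend on how libraries are scaled. The Syt4 to Syt1 ratio was 0.516, 0.453 and 0.555 in elav null. In double null libraries it was 0.552, 0.575 and 0.558. It was 0.371, 0.354 and 0.351 in WDd, and 0.362, 0.330 and 0.302 in WT. Every null library was above every WDd and WT library, and the geometric mean ratio was 1.53 times the WT one in elav null and 1.70 times in double null embryos. The level of Syt4 itself was not called in either null genotype. The ratio carries the values of both genes.

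The Syt7 to Syt1 ratio was 0.145, 0.179 and 0.161 in elav null. Double null libraries had 0.0780, 0.0595 and 0.0811. The ratio was 0.182, 0.158 and 0.185 in WDd, and 0.213, 0.194 and 0.150 in WT. The double null libraries lay below all others, at 0.393 times the WT geometric mean. The Syt12 to Syt1 ratio formed 3 levels. It was 0.0156 to 0.0233 in the double null, 0.0380 to 0.0409 in elav null, and 0.0520 to 0.0589 in WDd with 0.0534 to 0.0687 in WT. The library labelled elav null replicate 3 gave mixed ratios. Those of Syt7 (0.161) and Syt12 (0.0395) lay among the other elav null libraries. That of Syt4 (0.555) lay inside the double null range, and that of Syt14 (0.0792) was above it, against 0.0391 and 0.0406 in the other elav null libraries. Its Sytalpha to Syt1 ratio of 0.0167 was below both groups, which had 0.0592 and 0.0606 in the other elav null libraries and 0.0477 to 0.0836 in the double null. The Syt14 to Syt1 ratio was higher in the double null, at 0.0532 to 0.0703, than in WT, at 0.0307 to 0.0403. With 3 libraries against 3, the exact permutation test (two-sided) cannot go below p = 0.1, which 6 of the 18 ratios tested against WT reached (adjusted p = 0.3).

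**Figure D3:**
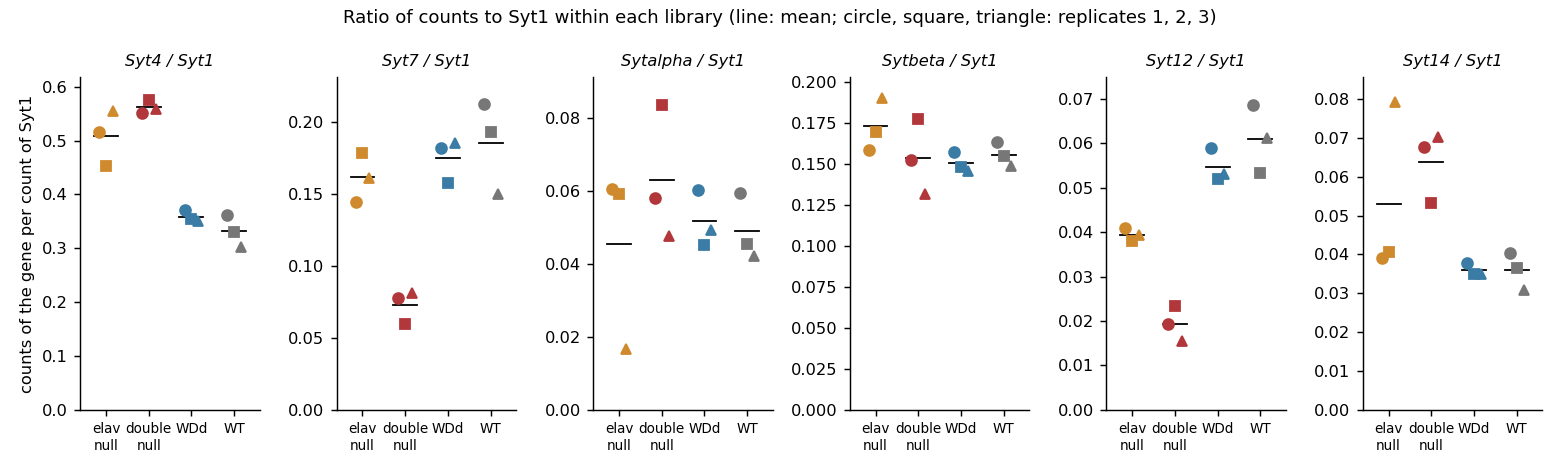
Counts of 6 synaptotagmin genes divided by the counts of Syt1 in the same library (linear axes from 0), for elav null, double null, WDd and WT; shapes give the replicate and lines the mean. Syt4 to Syt1 separates both null genotypes (0.453 to 0.575) from WDd and WT (0.302 to 0.371), and Syt7 to Syt1 separates the double null (0.0595 to 0.0811) from all others.

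As shares of all synaptotagmin counts, Syt1 held 50.7% to 52.5% in the double null against 52.4% to 57.7% in WT. Syt4 held 28.6% to 29.3% in the double null against 17.4% to 19.0% in WT. Syt7 held 3.02% to 4.26% in the double null against 8.66% to 11.2% in WT, and Syt12 0.818% to 1.18% in the double null against 2.94% to 3.603% in WT. Summed over the 7 genes, levels were 381 to 517 CPM in the double null, 392 to 804 CPM in elav null, 634 to 729.8 CPM in WDd and 505 to 819.8 CPM in WT. Set against the mean log2 CPM of the 10 neuron markers in the same library, Syt7 stood at −3.84 to −3.61 in the double null against −2.39 to −1.69 in WT, and Syt12 at −5.83 to −5.12 in the double null against −3.82 to −3.30 in WT. Syt1 stood at −0.03 to 0.19 in the double null against 0.34 to 0.53 in WT on that scale. On this scale the double null libraries were below all WT libraries for these 3 genes and above all of them for 2 others. Syt4 stood at −0.87 to −0.61 in the double null against −1.38 to −0.93 in WT, and Syt14 at −3.99 to −3.80 in the double null against −4.64 to −4.04 in WT. Sytalpha and Sytbeta overlapped. The gaps of Syt4 (−0.87 against −0.93) and Syt14 (−3.99 against −4.04) were narrow. Of the 10 neuron markers, nrv3 and nSyb were called lower in edgeR and 0 higher (median log2 fold change −0.18). The marker mean itself was 7.73 ± 0.125 in the double null and 8.03 ± 0.511 in WT (SD, n = 3 each). Values on this scale carry that difference too, and nSyb is also in the SNARE list below.

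Genes with functions next to the synaptotagmins were counted from lists set by known function. These lists, too, were chosen with earlier results of these data known, so their counts are descriptions. In the double null, 7 of 13 SNARE and fusion partners were called lower and 0 higher in edgeR (median log2 fold change −0.57), where the background was 14.7%. They included Snap25, a SNARE of the presynaptic membrane (−4.56 ± 0.42 SE, edgeR adjusted p = 1.19e-05), Cadps, a priming factor of dense-core vesicles (−0.95 ± 0.20, 0.00406), and Rop, which binds syntaxin (−0.71 ± 0.15, 0.0043). Among vesicle proteins and genes of vesicle retrieval, 7 of 15 tested were lower and 0 higher (median −0.63). The vesicular glutamate transporter gene VGlut (−1.87 ± 0.36 SE, edgeR adjusted p = 0.00205), the monoamine transporter gene Vmat (−2.19 ± 0.44, 0.00268) and the chaperone gene Csp (−0.82 ± 0.19, 0.00632) were among them. Leaving out single libraries gave 3 to 7 lower genes in the SNARE list and 4 to 9 in the vesicle list. Those fits called 9.91% to 17.1% of all genes lower. The low ends came without double null replicate 1 in the SNARE list (3), and without any single double null replicate in the vesicle list (4). The SNARE count was 4 without double null replicate 3 or WT replicate 3.

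Fewer genes were called in the remaining lists in the double null, where 14.7% of all genes tested were lower. Of 11 genes for calcium entry and the active zone, 2 were lower, the calcium channel subunit genes Ca-beta (−1.14 ± 0.23 SE, edgeR adjusted p = 0.0026) and stj (−0.80 ± 0.26, 0.0418), with a median of −0.43. Of 9 dense-core vesicle genes 1 was lower, amon, a prohormone convertase gene (−0.75 ± 0.21, edgeR adjusted p = 0.0213), with a median of −0.11. Of 7 genes of related C2-domain proteins 1 was lower, Cadps, counted above. In lists of 7 to 11 genes, these counts lie near the share over all genes. Without single libraries the calcium list gave 1 to 3 lower genes and the dense-core list 0 to 2. Those fits called 9.91% to 17.1% of all genes lower. The amon gene was not called without WT replicate 2 or 3 or without double null replicate 1 or 2. In elav null, where 17.7% of all genes were called in either direction, the same 5 lists held 1 lower gene and 0 higher. The lower gene was Ca-beta (−0.74 ± 0.23, edgeR adjusted p = 0.0372). Ca-beta was no longer called there when 1 of these libraries was left out: WT replicates 2 and 3, elav null replicates 1 and 3, double null replicates 1 and 3, and WDd replicate 3. In WDd versus WT the 5 lists held 0 in both directions, where 0.2% of all genes were called. All 12 muscle markers were lower in the double null and 11 of 12 in elav null, with sums of 2817 to 5275 CPM in the double null, 2949 to 18741 CPM in elav null and 42531 to 47985 CPM in WT. Of 8 glia markers 2 were higher and 1 lower in the double null, with sums of 1166 to 1458 CPM against 1050 to 1119 CPM in WT. The 14 eggshell and yolk markers summed to 95, 708.5 and 15.88 CPM in elav null replicates 1 to 3. Their sums were 5.84 to 9.15 CPM in the double null, 2.78 to 3.92 CPM in WDd and 2.17 to 5.04 CPM in WT. Of the 13 tested, 9 were called higher and 0 lower in elav null versus WT (median log2 fold change 6.13). In double null versus WT 0 were called. The part of any of these markers in the synaptotagmin results was not tested.

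**Figure D4:**
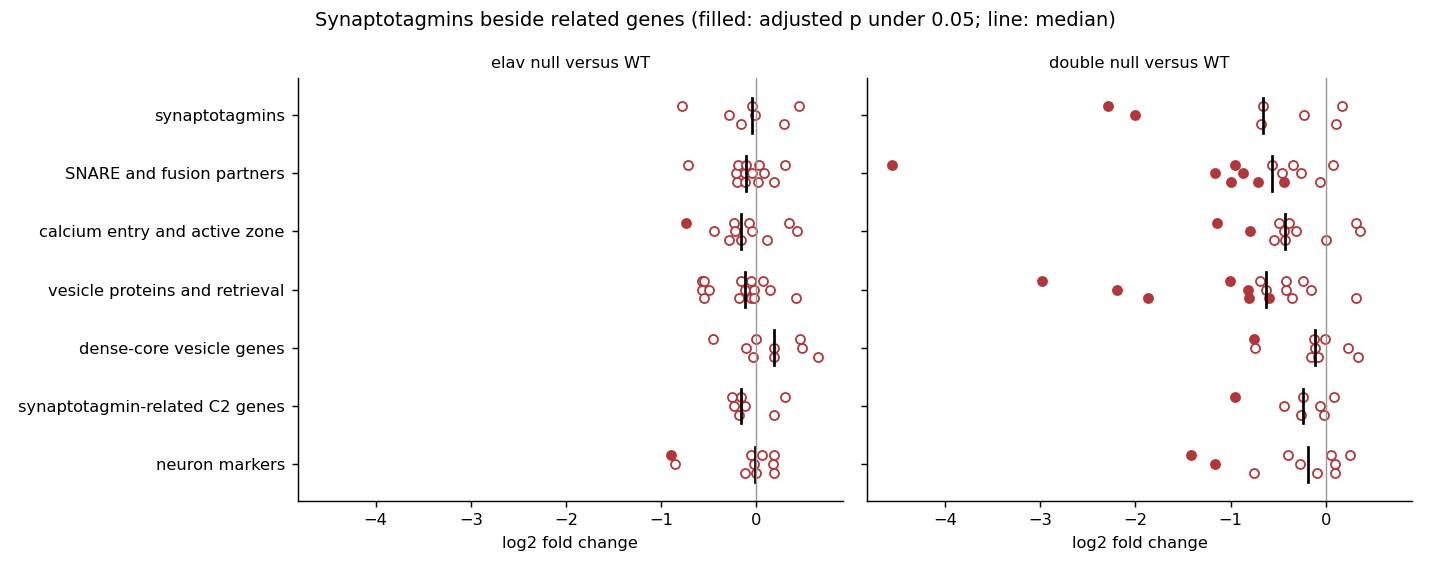
Log2 fold changes of the synaptotagmin genes and of 6 gene lists in elav null versus WT and in double null versus WT; each point is 1 gene, filled where its adjusted p is under 0.05, and black lines are list medians. In the double null the synaptotagmin median is −0.66 and that of the SNARE and fusion partners −0.57, while in elav null the medians lie between −0.16 and 0.18.

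Members also differed in which genes their levels resembled over the 12 libraries. Among 5654 named genes of at least 5 CPM, the highest Pearson correlations of log2(CPM + 0.5) with Syt7 were those of Teh4, an accessory subunit gene of the sodium channel (r = 0.982), Ktl (0.974) and the potassium channel gene Shal (0.974). For Syt12 they were Frq2, a neuronal calcium sensor gene (0.989), dpr14 (0.980) and Pfk (0.979). For Syt1 they were Sap47, a synapse-associated protein gene (0.988), stol (0.985) and loaf (0.983), and for Sytbeta Rab3, a vesicle GTPase gene (0.969), Ggamma30A (0.962) and loaf (0.960). The most similar genes were beat-IIIb (0.931), Eaat2 (0.924) and GluRIA (0.921) for Syt4, and beat-Vb (0.942), Ror (0.933) and PXo (0.930) for Sytalpha. Syt14 had no close match, the nearest being nAChRalpha1 (0.886), MsR1 (0.883) and unc-13-4A (0.858). Between members, r was 0.95 for Syt7 with Syt12 and for Syt1 with Sytbeta, and −0.21 to 0.61 for Syt14 with the others. These correlations are descriptions: the 12 points come from 4 genotypes, so genes that differ between the same groups correlate. They also include the library labelled elav null replicate 3, where Sytalpha had 3.20 CPM, against 9.99 to 24.5 CPM in the others. Correlations without that library were not computed.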

How the data were processed

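The authors deposited 1 table of raw read counts per gene, with 1 column for each of 12 libraries. The submitters' processing notes name featureCounts 2.0.8, the aligner STAR 2.7.11a, the trimmer Trim Galore 0.6.7, version 1.40.2 of DESeq2, and dm6; settings are not given in the sources used here. Symbols came from the RefSeq table of the same assembly, and spans, exons and transcripts from the Ensembl release 115 annotation in dm6 coordinates. Counts were scaled with TMM factors, genes were filtered with filterByExpr, and 14031 genes were tested with edgeR 4.0.16 (R 4.3.3): quasi-likelihood F tests, two-sided, 1 model of all 12 libraries with group as the only term, Benjamini-Hochberg adjustment over all genes tested, called at an adjusted p under 0.05. The fit was also run on counts simulated from WT means and the fitted spread. Such counts do not reproduce irregular libraries like the one labelled elav null replicate 3, so that run does not bear on them. The common biological coefficient of variation was 0.595. A count of 3 in a library corresponds to 0.0328 to 0.139 CPM. The members and gene lists were chosen with earlier results of these data known. The rule for named genes took all members, the 3 genes most correlated with each, and up to 3 called genes per list and comparison. Of the list genes, Hid-1 was not matched. The labels state no pairing and none was seen between same-numbered libraries, so none was assumed. Alternatives were RLE factors, DESeq2 1.42.0, no filter, only the 6 libraries compared, a replicate block, and leaving out each library. Robust dispersion, and leaving out the 3 libraries of fewest detected genes, were added after seeing the data. Intervals cover 95% and come from the fit. Sequences of members were not used here.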

Additional observations from a re-analysis of the deposited data

How the results depend on the processing

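The calls of Syt7 and Syt12 as lower in the double null than in WT were kept under all 19 alternatives. Of 777 alternative log2 fold changes of the members, 718 kept their direction and their side of the threshold. Another 30 changed direction, 19 passed the threshold newly and 10 no longer passed. Those 10 were all of Syt7 in double null versus elav null. The cause was not tested. With single libraries left out, 0 to 1 members were called in elav null versus WT, in fits that called 11.1% to 18% of all genes. In double null versus WT 2 to 4 members were called (14.4% to 25.9% of all genes). The number was 0 to 3 in double null versus elav null (0% to 7.12%) and 2 to 4 in WDd versus double null (13.1% to 26.2%). Leaving out the 3 libraries of fewest detected genes gave 5 in double null versus WT and 5 in WDd versus double null, and leaves elav null with 1 library. All genes called in double null versus WT numbered 2998, and 2087 to 3818 under the alternatives. In double null versus elav null DESeq2 called 2 members (4.11% of all genes), the 6 libraries alone 0 (0%) and the replicate block 0 (0.0143%). The 6 libraries alone gave 4 members in WDd versus double null, with 34.3% of all genes called. Same-numbered libraries correlated from −0.26 to 0.161, with 1 of 18 pairs over 0.1, and differently numbered ones from −0.16 to 0.256. No positive pairing was seen, but with 3 libraries in each group this check cannot exclude shared collections. Over all genes, double null versus elav null gave 32 calls, against 577 in DESeq2, 7 with RLE factors, 2 with the replicate block, 0 in the 6 libraries alone and 0 to 1047 with single libraries left out. WDd versus WT gave 28, against 155 in DESeq2, 16 with the block, 87 without the 3 libraries and 4 to 78 with single libraries left out. Elav null versus WT gave 2479, against 1273 in the 6 libraries alone and 1624 without WT replicate 2; WDd versus elav null gave 2356, against 1443 without WDd replicate 3. WDd versus double null gave 2933, against 4516 in the 6 libraries alone and 1913 without WDd replicate 3. The median log2 fold change of all genes was 0.1 with RLE factors, against −0.031 with TMM factors, in double null versus WT, and −0.13 against 0.011 in WDd versus double null.

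Directions changed only for values that were not called. In elav null versus WT, Sytalpha was 0.045 with RLE factors, 0.041 in DESeq2 and 0.025 with no filter, and Sytbeta 0.067, 0.066 and 0.043. With single libraries left out, Syt1 ran from −0.38 to 0.12, Sytalpha from −0.44 to 0.45 and Sytbeta from −0.24 to 0.21. In double null versus WT, Syt4 ran from −0.011 to 0.3 and was −0.014 without the 3 libraries. In WDd versus WT, Syt1 ran from −0.089 to 0.33, Syt7 from −0.046 to 0.13, Sytbeta from −0.1 to 0.25 and Syt12 from −0.19 to 0.19. In double null versus elav null Sytalpha ran from −0.66 to 0.23. In WDd versus elav null, Syt1 ran from −0.036 to 0.46, Sytalpha from −0.26 to 0.63 and Sytbeta from −0.17 to 0.28, and Sytbeta was −0.037 with RLE factors and in DESeq2. In WDd versus double null Syt4 was −0.031 with RLE factors and in DESeq2, and −0.0041 to 0.23 with single libraries left out.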
